A study of Mus musculus with 4 samples.

Results

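The medial ganglionic eminence (MGE) fate transcription factors described here are 8 genes, Nkx2-1, Lhx6, Lhx8, Sox6, Satb1, Maf, Mef2c and Bcl11b, chosen by symbol out of the 43348 genes counted by single-cell RNA-seq in cells sorted from juvenile mouse brain. Each symbol matched 1 gene, and all 8 are followed across cell classes, brain regions, Grin1 genotypes and libraries.

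The MGE is an embryonic progenitor zone of the ventral telencephalon that generates most somatostatin (SST) and parvalbumin (PVALB) interneurons of cortex and hippocampus, together with a set of neurogliaform cells (NGFCs). Its cells pass through a cascade of transcription factors in which Nkx2-1 sets regional identity in progenitors, Lhx6 and Lhx8 direct GABAergic and cholinergic branches, and Sox6, Satb1, Maf and Mef2c act later as postmitotic neurons migrate, mature and acquire subtype features. Nkx2-1 is silenced in most MGE-derived cells that migrate to the cortex and is kept in neurons that stay in the striatum.

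Cells of the Nkx2-1 lineage were labeled in mice carrying Nkx2-1-Cre and the Ai14 reporter, so that TdTomato (TdT+) marks every cell with a history of Nkx2-1-driven Cre, glia included, whether or not it still expresses Nkx2-1. WT mice had Grin1 wt/wt alleles, and null mice were littermates with Grin1 fl/fl alleles, in which Cre removes the obligatory NMDA receptor subunit from that whole lineage. Both genotypes carried the driver and the reporter, both sexes were used, and animals were taken at postnatal days 18 to 20 and pooled within a preparation. Frontal cortex and hippocampus were dissected from slices, dissociated with papain and sorted for live, DAPI-negative, DRAQ5-positive TdT+ singlets. After slicing, recovery, dissection and later steps up to the sort used buffers with tetrodotoxin, APV and actinomycin-D, which block action potentials, NMDA receptors and transcription.

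There were 3 WT and 2 null libraries from each region, told apart by the barcode suffix. The cortical WT libraries 1, 2 and 3 held 9306756, 14212183 and 28057207 UMIs, and the hippocampal WT libraries held 10555408, 8782181 and 20639002. The cortical null libraries 1 and 2 held 1488601 and 25688337 UMIs, and the hippocampal null libraries held 3856745 and 47338167. The 10x reagents were version 2 for replicate 1 and version 3 for the later ones, so replicate number, chemistry and preparation cannot be told apart in replicate 1. Of 26987 cells, 26201 were kept. Pairs of libraries shared 95 cell barcodes in all, and at most 12 in a pair.

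Some libraries stood apart before any gene was compared. Hippocampal WT library 2 was the shallowest, with a median of 1479 UMIs per kept cell against 4411 and 5752 in the other hippocampal WT libraries. Cortical null library 1 was the smallest, with 177 kept cells. Cells with high mitochondrial content were removed mostly from cortical null library 2 (287 cells, 9.90%) and hippocampal null library 2 (265 cells, 5.97%), and the other libraries lost at most 4 each. Pooled null interneurons held more UMIs per cell than pooled WT interneurons, with a median of 14158 against 6723.5 UMIs, though the 8767 of cortical null library 1 lay within the WT range (2280 to 10367).

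The genotype labels were checked with Grin1 in the pooled interneurons. Grin1 stood at 144, 238 and 213 CPM (UMIs of the gene per 1e6 UMIs of the cells summed) in cortical WT libraries 1, 2 and 3, and at 36.7 and 27.1 CPM in the null libraries. In the hippocampus it stood at 117, 155 and 143 CPM in WT and at 24.3 and 18.9 CPM in null libraries. Every null library lay below every WT library of either region.

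The cells formed 35 clusters, and the clusters were grouped without using any of the 8 transcription factors as a clustering feature or a class marker. Interneurons were 6760 WT and 2991 null cells, split into SST (3804 and 1554, with Th-expressing and Crh-expressing clusters counted here), PVALB (1607 and 588) and NGFC (1349 and 849). Oligodendrocytes (OLIGO), their precursors (OPC) and committed precursors (COP), glutamatergic cells (GLUT), astrocytes (ASTR) and microglia (MG) made up most of the rest. Class names come from markers, and different clusters held most of a class in some libraries. Cluster 16 held 99.4% of the NGFCs of hippocampal WT library 2 and at most 9.43% of those of any other library. Among SST cells, cluster 4 held 78.3% of hippocampal WT library 2, cluster 24 held 37.0% of cortical WT library 1, and cluster 7 held 40.3% of cortical WT library 3.

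Nkx2-1, the homeodomain factor that specifies the MGE and drives the Cre used for sorting, was graded across the interneuron classes of WT mice, highest in NGFCs and lowest in SST cells. In NGFCs it ranged from 62.8 to 126 CPM over the WT libraries, with a median of 71.2 and a mean of 79.5 ± 23.6 CPM (SD, n = 6). In PVALB cells it ranged from 11.7 to 38.4 CPM, with a median of 18.8 and a mean of 21.2 ± 9.52, and in SST cells from 1.62 to 6.48 CPM, with a median of 3.26 and a mean of 3.73 ± 1.96. The ranges of the classes did not overlap. Classes were compared with edgeR on UMIs summed by library and class, with the library as a block, and a difference was called at an adjusted p under 0.01 and an absolute log2 value of at least 0.144. On the log2 scale Nkx2-1 was higher by 4.57 in NGFCs than in SST cells (SE 0.24, edgeR adjusted p = 1.8e-11), by 2.01 in NGFCs than in PVALB cells (SE 0.22, adjusted p = 8.6e-07) and by 2.56 in PVALB than in SST cells (SE 0.27, adjusted p = 4.6e-07). Each of these directions held in 6 of 6 WT libraries and in 3 of 3 null libraries with enough cells. The PVALB difference was smaller without a pair of Pthlh-high clusters, at 1.28 on the log2 scale with an adjusted p of 0.010002, just outside the threshold, and PVALB cells still lay above SST cells in 6 of 6 WT libraries. Among the other TdT+ cells, OPCs averaged 33.3 ± 25.7 CPM (n = 6), a range that overlapped those of NGFCs and PVALB cells, while OLIGO averaged 1.04 ± 0.736 CPM (n = 6).

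Lhx6, the LIM-homeodomain factor that Nkx2-1 activates and that cortical SST and PVALB interneurons need to migrate and differentiate, was present in every interneuron class. In NGFCs it ranged from 136 to 233 CPM (median 196, mean 193 ± 38.3, n = 6 WT libraries), in PVALB cells from 72.1 to 147 (median 114, mean 114 ± 26.5) and in SST cells from 67.9 to 119 (median 103, mean 98.7 ± 17.6). NGFCs lay above SST cells without overlap and above PVALB cells in each library, while the PVALB and SST ranges overlapped. The NGFC excess was 0.97 on the log2 scale over SST cells (SE 0.083, edgeR adjusted p = 1.7e-08, 6 of 6 WT libraries) and 0.80 over PVALB cells (SE 0.089, adjusted p = 8.9e-07, 6 of 6). Between PVALB and SST cells Lhx6 did not pass the threshold (log2 0.17, SE 0.082, adjusted p = 0.155, higher in 5 of 6). GLUT cells averaged 2.24 ± 2.06 CPM (n = 5) and the glial classes less, and none of their libraries reached the lowest SST library.

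Lhx8, the LIM-homeodomain factor of forebrain cholinergic neurons, was low in the 3 interneuron classes. Over all WT libraries it gave 13 UMIs in SST cells (0.411 CPM, 95% exact Poisson interval 0.219 to 0.703), 8 UMIs in PVALB cells (0.662 CPM, 0.286 to 1.30) and 0 UMIs in NGFCs (0 to 0.573 CPM). These intervals cover counting error only. Lhx8 was filtered out of every test that used the low-count filter, so it is given here as values only. Of the PVALB and SST UMIs, 6 came from cluster 31 (18.7 CPM) and 8 from cluster 21 (2.75 CPM). In null libraries 1 and 2 Lhx8 in PVALB cells stood at 0 and 4.52 CPM in cortex and at 0 and 5.95 CPM in hippocampus, in SST cells at 0 and 1.19 CPM and at 0 and 0.918 CPM, and in NGFCs at 0 in each library with at least 10 cells. Null library 2 of each region was thus above every WT library for PVALB and SST cells and null library 1 was not. The PVALB values came from few cells, 4 of 249 in cortical and 4 of 280 in hippocampal null library 2, and of the null PVALB UMIs 40 lay in cluster 31 (38.2 CPM). The largest WT set of cells with a clear Lhx8 level was cluster 22, an unnamed cluster led by Oxt, Pcp4, Avp, Tacr1, Zic1, Galr1 and Vip, with 70 Lhx8 UMIs or 56.1 CPM (43.7 to 70.9) over the libraries with at least 10 of its cells.

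Cluster 22 held 271 WT and 138 null cells, Sst at 15149 CPM and Nos1 at 1282 CPM. Lhx8 stood there at 65.6, 70.1 and 17.2 CPM in cortical WT libraries 1, 2 and 3, at 72.8 in cortical null library 2, at 0 and 80.1 in hippocampal WT libraries 1 and 3, and at 0 in hippocampal null library 2. Of the 7 libraries with at least 10 of these cells, 4 were high in Lhx8. The 0 of hippocampal null library 2 comes from 504386 UMIs, while that of hippocampal WT library 1 comes from 13 cells with 40392 UMIs, too few to tell it from the high libraries. A list of 4 cholinergic markers summed to 174 CPM over the WT cells of cluster 22, with Slc5a7 as its most abundant gene (89.6 CPM) and Chat at 12.0 CPM. By library that sum was 10.9, 426 and 5.72 CPM in cortical WT, 21.6 in cortical null library 2, 0 and 160 in hippocampal WT libraries 1 and 3, and 7.93 in hippocampal null library 2. Over all 138 null cells it was 123.4 CPM (184 UMIs), of which only 19 and 4 UMIs lay in these null libraries and the rest in null libraries with under 10 of the cells. Lhx6 was also high in some of these libraries (404, 225 and 272 CPM in cortical WT) and low in hippocampal WT libraries 1 and 3 (49.5 and 18.9 CPM). Whether cluster 22 mixes several cell types was not tested.

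Sox6, an SRY-box factor that acts after Lhx6 in the positioning and maturation of SST and PVALB interneurons and that also keeps oligodendrocyte precursors immature, was low in NGFCs. In SST cells it ranged from 33.8 to 96.9 CPM (median 55.1, mean 62.3 ± 28.0, n = 6 WT libraries), in PVALB cells from 38.0 to 85.7 (median 56.9, mean 60.1 ± 19.2) and in NGFCs from 4.47 to 13.8 (median 8.48, mean 8.26 ± 3.52). NGFCs lay below both other classes without overlap, and SST and PVALB ranges overlapped. Sox6 was lower in NGFCs by a log2 value of -2.92 against SST cells (SE 0.15, edgeR adjusted p = 1.4e-11) and -2.81 against PVALB cells (SE 0.16, adjusted p = 1.5e-10), each in 6 of 6 WT libraries. Between PVALB and SST cells the log2 difference was -0.11 (adjusted p = 0.394, 3 of 6 libraries each way). The highest Sox6 levels were outside the neurons, with 241 ± 75.8 CPM in OPCs and 143 ± 47.1 CPM in COPs (n = 6 each). These ranges overlapped each other, and OLIGO averaged 1.52 ± 1.35 CPM.

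Satb1, a chromatin organizer needed for the maturation and survival of SST interneurons, differed between all 3 classes. In SST cells it ranged from 470 to 721 CPM (median 626, mean 626 ± 87.8, n = 6 WT libraries), in PVALB cells from 151 to 339.6 (median 237, mean 239 ± 63.2) and in NGFCs from 7.67 to 45.7 (median 22.4, mean 23.6 ± 15.4). No range overlapped another, and the NGFC mean was close to that of OLIGO (25.1 ± 5.78 CPM). Satb1 was lower in NGFCs than in SST cells by a log2 value of -5.04 (SE 0.26, edgeR adjusted p = 1.4e-11), lower in NGFCs than in PVALB cells (-3.66, SE 0.27, adjusted p = 5.8e-09) and lower in PVALB than in SST cells (-1.38, SE 0.17, adjusted p = 4.2e-06), each in 6 of 6 WT and 3 of 3 null libraries.

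Maf, a basic leucine zipper factor that shapes the number and balance of MGE-derived interneurons and is also a macrophage lineage factor, varied more between libraries than between classes. In NGFCs it ranged from 144 to 658 CPM (median 351, mean 380.2 ± 196, n = 6 WT libraries), in SST cells from 81.7 to 556 (median 186, mean 225 ± 169) and in PVALB cells from 114 to 315 (median 178, mean 195 ± 72.0). All 3 ranges overlapped, and replicate 2 was the highest WT library of every class in both regions. With the library as a block, Maf was higher in NGFCs than in SST cells (log2 0.84, SE 0.14, edgeR adjusted p = 1.1e-04, 6 of 6 WT libraries) and than in PVALB cells (log2 0.91, SE 0.15, adjusted p = 1.0e-04, 5 of 6). Neither call held without that block (log2 0.77, adjusted p = 0.279, and log2 0.98, adjusted p = 0.144), and the NGFC excess over SST cells was also lost without SST clusters 7 and 10, which have a marker of caudal ganglionic eminence cells among their leading genes (log2 0.48, adjusted p = 0.0122). PVALB and SST cells did not differ past the threshold (log2 -0.07, adjusted p = 0.765, 3 of 6 each way). MG had the highest mean, 822 ± 216 CPM (n = 4).

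Mef2c, an activity-regulated MADS-box factor needed for PVALB interneuron development and shared with excitatory cortical neurons and microglia, was highest in PVALB cells among the 3 interneuron classes. It ranged there from 1102 to 1423 CPM (median 1315, mean 1284 ± 118, n = 6 WT libraries), in NGFCs from 545 to 942 (median 722, mean 745 ± 145) and in SST cells from 295 to 455 (median 383, mean 387 ± 59.8). The 3 ranges were separate. Mef2c was higher in PVALB than in SST cells (log2 1.72, SE 0.098, edgeR adjusted p = 1.0e-10), higher in NGFCs than in SST cells (log2 0.94, SE 0.099, adjusted p = 2.9e-07) and lower in NGFCs than in PVALB cells (log2 -0.78, SE 0.098, adjusted p = 3.8e-06), each in 6 of 6 WT and 3 of 3 null libraries. GLUT cells averaged 1026 ± 803 CPM (n = 5) and ran from 230 to 2254 CPM, overlapping PVALB cells and passing their highest library, and MG averaged 513 ± 78.2 CPM (n = 4), while OLIGO averaged 4.88 ± 4.92 CPM.

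Bcl11b, the zinc-finger factor also called Ctip2 and best known from corticospinal and striatal projection neurons, was highest in NGFCs. It ranged there from 122 to 495 CPM (median 350.5, mean 328 ± 126, n = 6 WT libraries), in PVALB cells from 69.1 to 158 (median 82.1, mean 91.6 ± 33.5) and in SST cells from 27.6 to 124 (median 59.6, mean 65.4 ± 33.7). The 122 CPM of hippocampal WT library 1 put the NGFC range into overlap with both others, yet NGFCs were above them within each library. Bcl11b was higher in NGFCs by log2 2.37 over SST cells (SE 0.16, edgeR adjusted p = 3.8e-10) and by 1.93 over PVALB cells (SE 0.17, adjusted p = 3.2e-08), in 6 of 6 WT and 3 of 3 null libraries. PVALB cells exceeded SST cells in 6 of 6 libraries, but the difference missed the threshold (log2 0.44, SE 0.16, adjusted p = 0.0494), which it passed with an adjusted p limit of 0.05 or with no filter on low counts (log2 0.38, adjusted p = 0.0091). GLUT cells averaged 221 ± 118 CPM (n = 5).

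**Figure D1:**
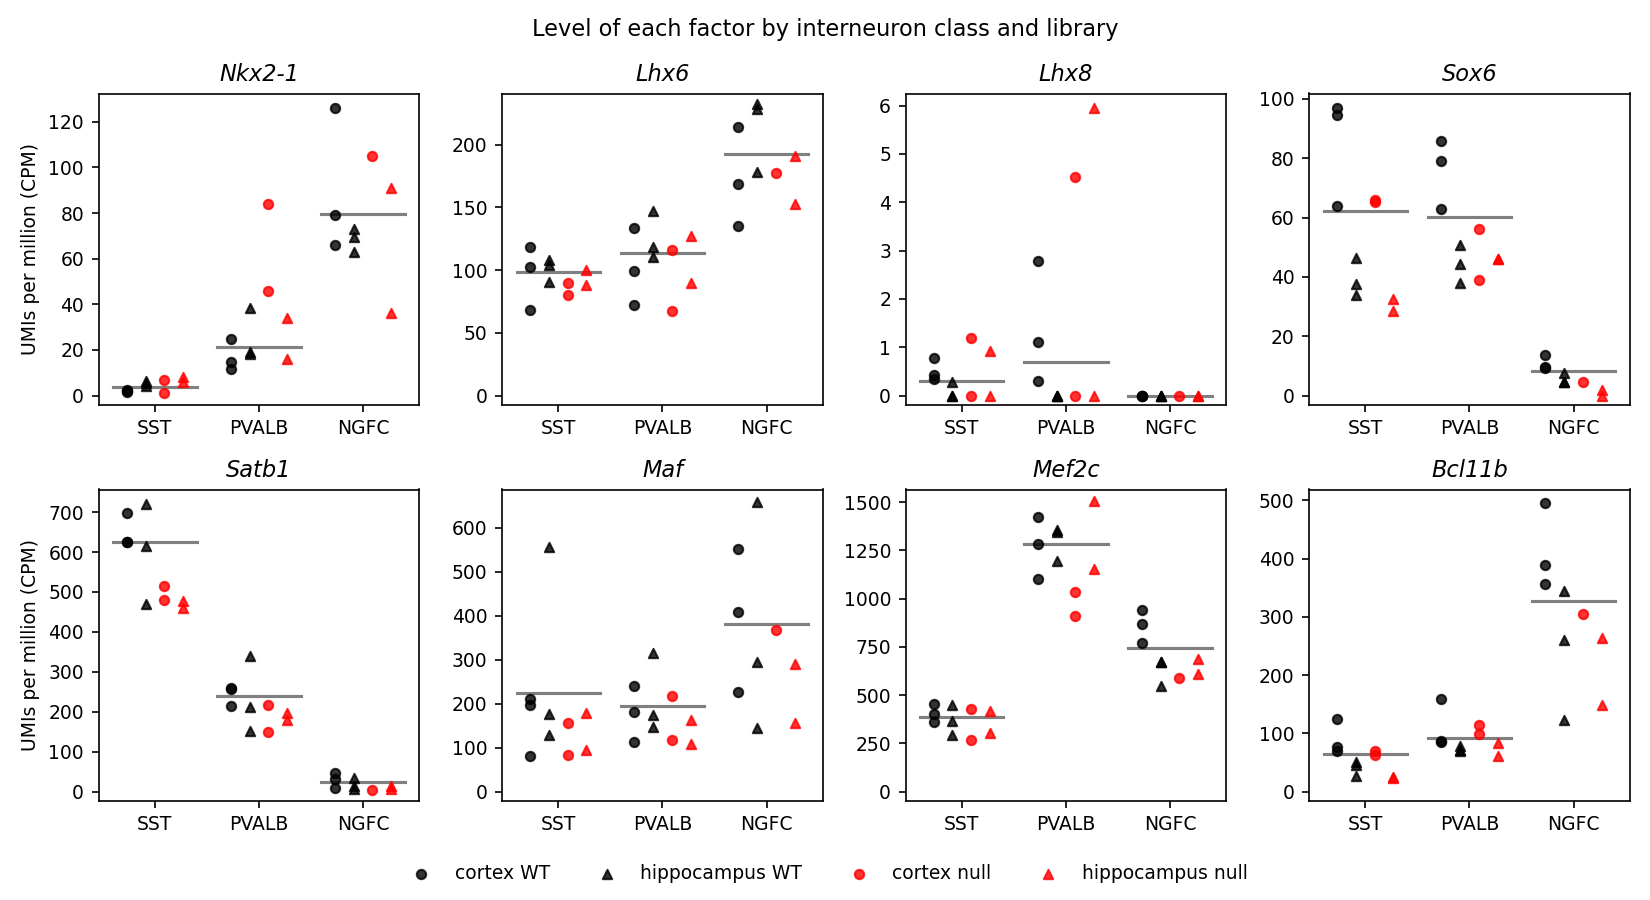
Level of each transcription factor in CPM (vertical axis of each panel, linear and separately scaled) in SST, PVALB and NGFC cells, with WT libraries in black, null libraries in red, cortex as circles, hippocampus as triangles and a gray bar at the WT mean. Nkx2-1 rises from SST to PVALB to NGFC, Satb1 falls in the same order, Mef2c peaks in PVALB, and Lhx8 is at most 5.95 CPM in any class and library.

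Counted together, 7 of the 8 genes passed the low-count filter in the class comparisons, and Lhx8 did not. Of the 9434 genes tested, 21.6% passed the threshold between PVALB and SST cells (2034 genes), 24.0% between NGFC and SST cells (2264) and 23.2% between NGFC and PVALB cells (2191). Of the fate factors, 3 passed between PVALB and SST cells, and 7 passed in each NGFC comparison. Without cortical WT library 3 the PVALB to SST count was 1318 genes. The 3 comparisons share classes and libraries, so they are not independent of each other. The median absolute log2 difference of the tested fate factors was 0.44, 2.37 and 1.93 in these comparisons, against 0.20, 0.24 and 0.27 over all genes tested. Without the library as a block 457, 840 and 677 genes passed.

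A list of 28 other interneuron lineage factors, of which 21 were tested, gives the setting. Between PVALB and SST cells 5 were higher (Prox1, Zeb2, Id2, Etv1 and Sox4) and 6 lower in PVALB cells (Dlx1, Npas1, Nr2f2, Bcl11a, Myt1l and Npas3), with a median absolute log2 difference of 0.58. Between NGFC and SST cells Prox1, Zeb2, Sp9, Id2 and Sox4 were among those higher and Npas1, Nr2f2, Bcl11a, Myt1l and Npas3 among those lower in NGFCs, with a median of 0.47 over the list. Between NGFC and PVALB cells Prox1, Zeb2, Dlx1, Nr2f2, Bcl11a and Id2 were among those higher and Etv1 and Npas3 were lower in NGFCs, with a median of 0.55 over the list. Id2 was among the NGFC markers and Npas1 among those of caudal ganglionic eminence cells, so their place is partly given by the naming. Npas3 is an example outside the markers, with log2 values of -1.67 in PVALB and -4.13 in NGFCs against SST cells (edgeR adjusted p = 6.1e-07 and 1.3e-09). By pooled level in WT interneurons Myt1l stood at 335 CPM, Zeb2 at 255 and Id2 at 134.

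Within the SST class the fate factors differed between clusters. In cluster 21, marked by Npy, Nos1 and Chodl (252 WT cells), Mef2c averaged 9.31 ± 10.3 CPM and Satb1 204 ± 60.9 CPM (n = 4 WT libraries), and Nkx2-1 gave 0 UMIs. The Th-expressing cluster 11 was high for both, with Satb1 at 936 ± 95.8 CPM and Mef2c at 831 ± 94.2 CPM (n = 5), and its Nkx2-1 stood at 11.6 ± 3.77 CPM. Cluster 21 thus lay at the low end of the SST clusters for Mef2c and Satb1, and cluster 11 at the high end. The Crh and Tac2 cluster 10 was low in Maf (56.0 ± 16.6 CPM) and in Sox6 (30.4 ± 5.35 CPM), while cluster 4 averaged 425 ± 182 CPM for Maf. These cluster values are descriptions without a test.

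Within the PVALB class, Nkx2-1 and Satb1 ran in opposite directions between cluster 2 and the clusters 23 and 31. In cluster 2, the largest, Nkx2-1 averaged 9.60 ± 6.92 CPM and Satb1 299.8 ± 67.7 CPM, and Mef2c 1210 ± 113 CPM (n = 6 WT libraries). In the Pthlh-expressing cluster 23 (219 WT cells) Nkx2-1 averaged 44.3 ± 18.7 CPM and Satb1 26.0 ± 8.49 CPM. In cluster 31, which expresses Crabp1 and Pthlh (40 WT cells), Nkx2-1 averaged 257 ± 79.4 CPM (n = 2 WT libraries). There Satb1 averaged 39.1 ± 33.4 CPM (28.0 pooled) and Mef2c 215 ± 27.6 CPM (292 pooled). Pthlh, pooled over both genotypes, was 39.3 CPM in cluster 2, 665 CPM in cluster 23 and 959.6 CPM in cluster 31. The pair of Pthlh-high clusters was therefore high in Nkx2-1 and low in Satb1, and cluster 31 alone was also low in Mef2c. The NGFC clusters 3 and 16 stood at 83.0 ± 23.5 CPM (n = 5) and 59.6 ± 4.28 CPM (n = 2) for Nkx2-1.

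**Figure D2:**
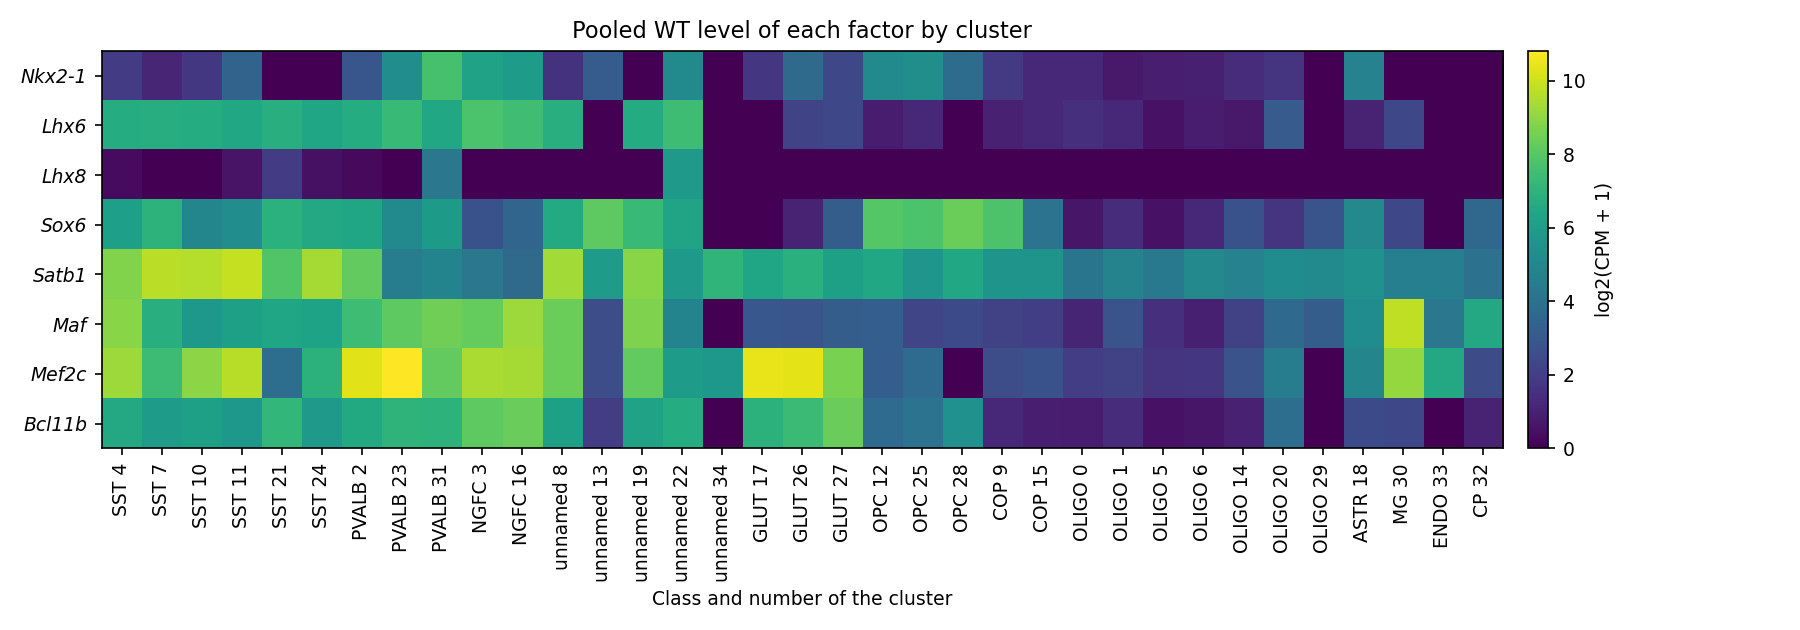
Pooled WT level of each transcription factor (listed down the side) in the 35 clusters (across, with class name and number), as log2(CPM + 1) on the color scale. Lhx6 is strongest in interneuron clusters, unnamed clusters 8 and 19 with SST markers, and cluster 22, while Sox6 is also strong in OPC clusters and COP cluster 9, Maf and Mef2c in the MG cluster, Mef2c in GLUT clusters, and Lhx8 in cluster 22.

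The share of cells with at least 1 UMI followed depth as well as level, so each cell was thinned to 1000 UMIs. In thinned WT interneurons (6580 cells, with 180 shallower cells left out, median before thinning 6862 UMIs) Mef2c was found in 42.3% of cells, Satb1 in 32.3%, Maf in 20.1%, Lhx6 in 11.7%, Bcl11b in 10.96%, Sox6 in 5.82%, Nkx2-1 in 1.85% and Lhx8 in 0.061%. In thinned WT OLIGO cells, a class outside the neurons (4827 cells, median 3883 UMIs), the shares were 2.40% for Satb1 and at most 0.331% for the other genes. At their own depth the WT interneurons (median 6723.5 UMIs) gave 78.9, 68.6, 58.7, 50.8, 43.3, 32.3, 8.24 and 0.237% in the same order, and OLIGO cells (median 3311 UMIs) gave 9.29% for Satb1 and 0.458% for Nkx2-1. By class, thinned Nkx2-1 was found in 7.43% of NGFCs, 1.51% of PVALB and 0.237% of SST cells, and thinned Satb1 in 1.09% of NGFCs, 21.6% of PVALB and 46.7% of SST cells. The NGFC share of Satb1 lay below that of OLIGO, and whether the OLIGO level is expression or background was not tested.

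Whether the fate factors differ between hippocampus and cortex was asked within WT cells of each class. In SST cells Sox6 stood at 63.9, 96.9 and 94.7 CPM in cortical libraries 1, 2 and 3 and at 33.8, 46.4 and 37.8 CPM in hippocampal libraries. Bcl11b stood at 68.9, 124 and 75.9 CPM in cortex and at 44.9, 50.4 and 27.6 CPM in hippocampus, and Nkx2-1 at 2.49, 2.20 and 1.62 CPM against 5.55, 4.03 and 6.48 CPM. All cortical libraries were above all hippocampal ones for Sox6 and Bcl11b, and below them for Nkx2-1. None of these passed the threshold in edgeR, with log2 values of -1.17 for Sox6 (SE 0.26, adjusted p = 0.150), -1.19 for Bcl11b (SE 0.33, adjusted p = 0.261) and 1.37 for Nkx2-1 (SE 0.39, adjusted p = 0.273). With the replicate number as a block, Sox6 (log2 -1.17, adjusted p = 0.0045) and Bcl11b (log2 -1.18, adjusted p = 0.0075) passed and Nkx2-1 did not (log2 1.41, adjusted p = 0.0953). DESeq2 called Sox6 alone (log2 -1.18, adjusted p = 0.0091). Lhx8, filtered out of the test, was also higher in all cortical libraries, on few cells. It was found in 3, 2 and 5 SST cells of the cortical and in 0, 0 and 1 of the hippocampal libraries.

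In counts, 0 of the 7 tested fate factors passed between regions in SST cells by edgeR, where 0.0253% of 11858 genes passed (3 genes). At an unadjusted p under 0.05 there were 3 fate factors and 798 genes, DESeq2 called 1 and 107, and the replicate block gave 2 and 182. Leaving out any cortical WT library or hippocampal WT library 3 took the 3 genes to 0, hippocampal WT library 1 to 1 and hippocampal WT library 2 to 5, with no fate factor called. The remaining fate factors had log2 values of 0.80 for Maf, 0.02 for Lhx6, -0.19 for Mef2c and -0.17 for Satb1. In the null libraries Sox6 was again higher in cortex (65.8 and 65.1 CPM against 32.5 and 28.4 in hippocampus), and so was Bcl11b (62.3 and 69.9 CPM against 22.8 and 25.1), while Nkx2-1 overlapped between regions (1.18 and 6.70 CPM against 6.15 and 8.10). Cluster 4 held 78.3% of SST cells in hippocampal WT library 2, and its part in these regional values was not tested.

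In PVALB cells Sox6 and Bcl11b leaned the same way without passing, and Nkx2-1 overlapped between regions. Sox6 stood at 62.9, 79.0 and 85.7 CPM in cortex and at 44.3, 50.8 and 38.0 in hippocampus, and Bcl11b at 86.9, 158 and 85.4 CPM against 70.9, 78.9 and 69.1. Both were higher in all cortical libraries over all PVALB cells. Without the Pthlh-high clusters the regions overlapped for both genes. Sox6 then stood at 65.5, 87.6 and 88.7 CPM in cortex and at 41.1, 75.9 and 44.1 CPM in hippocampus. Bcl11b then stood at 77.6, 148 and 82.7 CPM against 86.8, 75.9 and 67.6 CPM. Over all PVALB cells the log2 values were -0.78 for Sox6 (SE 0.27, edgeR adjusted p = 0.811) and -0.58 for Bcl11b (SE 0.30, adjusted p = 0.99979). Of the 7 tested fate factors 0 passed in edgeR, with 0.0454% of 8820 genes passing (4 genes), and 1 fate factor and 383 genes were at an unadjusted p under 0.05. DESeq2 called 0 fate factors and 23 genes, the replicate block 0 and 52, and leaving out any 1 of the 6 libraries gave 0 genes. Lhx8, filtered out of the test, was found in 2, 1 and 2 PVALB cells of the cortical and in 0 of each hippocampal library. In NGFCs edgeR called 0 of the 6 tested fate factors and 0.0% of 7977 genes, with 0 and 214 at an unadjusted p under 0.05, DESeq2 called 0 and 6, and the replicate block called 0 and 10. There Bcl11b stood at 356, 495 and 389 CPM in cortex and at 122, 345 and 261 CPM in hippocampus (log2 -0.72, SE 0.38), without overlap. Mef2c (867, 942 and 771 CPM against 545, 673 and 673) and Sox6 (9.46, 9.61 and 13.8 CPM against 4.70, 7.49 and 4.47, filtered out of the test) were also higher in all cortical libraries. A missed threshold with 3 libraries a region does not show that levels were equal.

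The comparison of null with WT cells asked how loss of the NMDA receptor bears on the fate factors, and the null comparisons within a class share their spread estimate. In SST cells Satb1 stood at 626, 626 and 697 CPM in cortical WT libraries 1, 2 and 3 and at 516 and 479 CPM in null libraries, and both null values were lower. In hippocampal SST cells it stood at 615, 470 and 721 CPM in WT and at 478 and 461 CPM in null libraries, which overlapped. The log2 values were -0.38 in cortex (SE 0.25) and -0.33 in hippocampus (SE 0.25), with edgeR adjusted p of 0.99994 and 1.0. Bcl11b in hippocampal SST cells stood at 44.9, 50.4 and 27.6 CPM in WT and at 22.8 and 25.1 CPM in null libraries (log2 -0.72, SE 0.34, adjusted p = 1.0), again with both null values below WT. Sox6 there stood at 33.8, 46.4 and 37.8 CPM in WT and at 32.5 and 28.4 CPM in null libraries, also without overlap (log2 -0.36, SE 0.28, adjusted p = 1.0). Within replicates 1 and 2 the log2 difference of Satb1 was -0.28 and -0.38 in cortex and -0.36 and -0.03 in hippocampus. That of Bcl11b was -0.14 and -0.82 in cortex and -0.95 and -0.98 in hippocampus. Sox6 gave 0.04 and -0.57 in cortex and -0.06 and -0.69 in hippocampus. The make-up of the SST class differed as well. Cluster 21, low in Satb1, held 5.40, 14.9 and 4.10% of SST cells in cortical WT libraries and 3.66 and 23.2% in null libraries, and cluster 11, higher in Satb1 and Nkx2-1, held 16.5, 13.9 and 14.1% against 12.2 and 27.9%. In hippocampus cluster 4 held 42.1, 78.3 and 24.1% of SST cells in WT libraries and 33.7 and 45.7% in null libraries. Cluster 7 held 1.85, 9.02 and 37.1% there against 3.61 and 26.6%, and the bearing of this make-up on the hippocampal values was not tested. Of the 4 SST clusters with at least 10 cells in both cortical null libraries, Satb1 was below all WT libraries in clusters 7, 10 and 11 (616 and 676 CPM against 756, 889 and 873 in cluster 7) and overlapped in cluster 4. Cortical null library 1 gave only 26, 12 and 10 cells in clusters 7, 10 and 11. The clusters come from the same libraries, and the bearing of make-up on the cortical values was not tested. Nkx2-1 in cortical SST cells stood at 2.49, 2.20 and 1.62 CPM in WT and at 1.18 and 6.70 CPM in null libraries, which lay on either side of WT (log2 1.31, SE 0.48, adjusted p = 0.99994).

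In SST cells edgeR called 0 of the 7 tested fate factors and 0.0% of 12842 genes in cortex, and likewise 0 and 0.0% in hippocampus. At an unadjusted p under 0.05 there were 1 fate factor and 285 genes in cortex and 0 and 369 in hippocampus, and DESeq2 called 0 fate factors in either region with 2 and 1 genes. The median log2 value of the fate factors was -0.38 in cortex and -0.33 in hippocampus, against -0.02 and -0.03 over all genes tested, and it was much the same for the 21 other lineage factors tested (-0.29 and -0.34). The interaction of genotype and region in SST cells gave 0 fate factors and 0.0% of genes in edgeR, with 0 and 80 at an unadjusted p under 0.05, and DESeq2 called 0.

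In cortical PVALB cells Nkx2-1 had the largest log2 value for null against WT among the 7 tested fate factors. It stood at 24.97, 14.8 and 11.7 CPM in cortical WT libraries 1, 2 and 3 and at 46.0 and 84.0 CPM in cortical null libraries, so both null libraries were above all WT libraries. In hippocampus it stood at 38.4, 19.3 and 18.4 CPM in WT and at 16.1 and 34.1 CPM in null libraries, with overlap. The cortical difference was 2.12 on the log2 scale (SE 0.40, edgeR adjusted p = 0.0651, 2 of 2 null libraries above WT), above the threshold of 0.01, and DESeq2 gave 2.05 (adjusted p = 0.0195). It passed only where genes were not filtered on low counts (log2 2.07, adjusted p = 2.9e-05). Within replicate 1 the log2 difference was 0.86 and within replicate 2 it was 2.43. The hippocampal value was 0.23 (SE 0.46), and the interaction was -1.89 (SE 0.62, adjusted p = 0.99992).

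In cortex the make-up of the PVALB class moved with the Nkx2-1 level. The Pthlh-high clusters 23 and 31 held 18.1, 15.0 and 7.52% of PVALB cells in cortical WT libraries and 28.6 and 53.4% in cortical null libraries, and 29.4, 45.6 and 15.0% in hippocampal WT against 22.6 and 37.1% in hippocampal null libraries. Hippocampal WT library 2, with the higher share, had less Nkx2-1 than hippocampal WT library 1 (19.3 against 38.4 CPM). Cluster 31 alone held 7.25, 1.78 and 2.76% in cortical WT libraries, 7 of 28 cells in cortical null library 1 and 23.3% in cortical null library 2. Both cortical null libraries were thus richer in these clusters than any cortical WT library. Without them the cortical log2 difference of Nkx2-1 was 0.47 (SE 0.62, edgeR adjusted p = 0.99985). In cluster 2 alone Nkx2-1 stood at 3.28, 7.56 and 5.19 CPM in cortical WT and at 14.4 and 6.23 CPM in cortical null libraries, which overlapped. These values rest on few UMIs, 3, 17 and 31 in WT and 3 and 10 in null libraries.

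**Figure D3:**
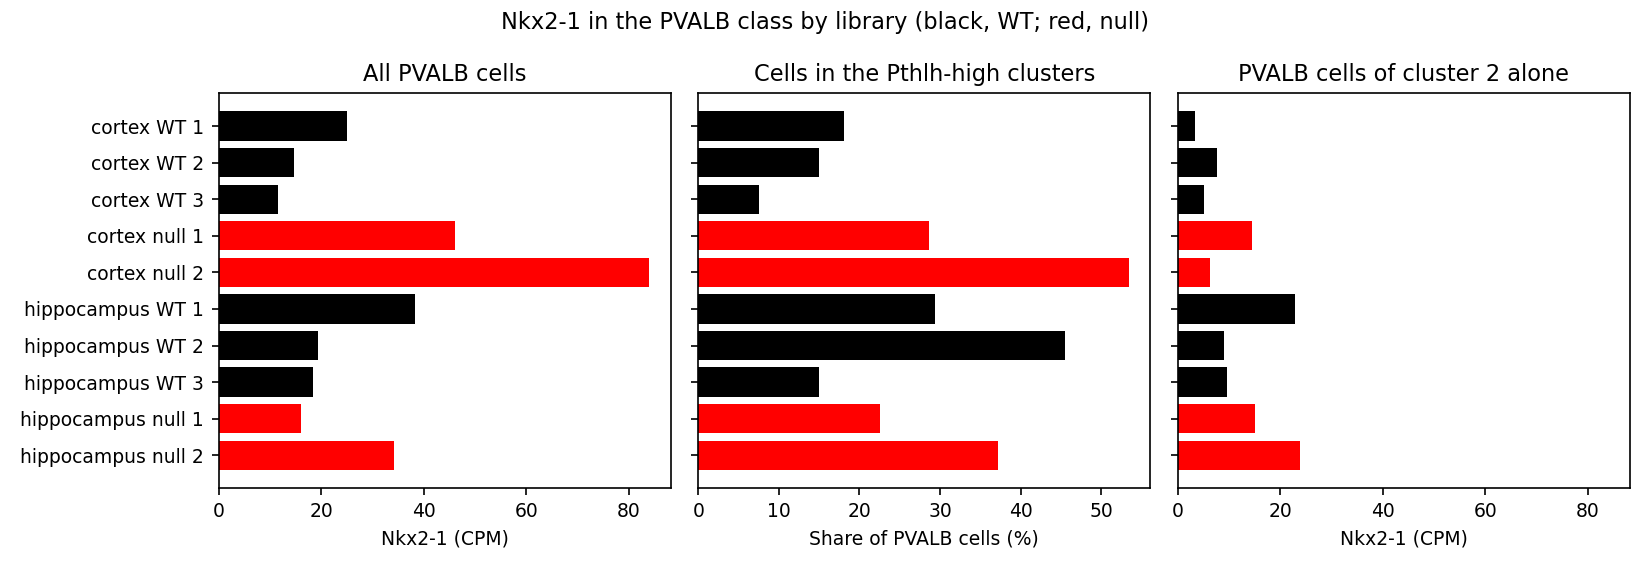
By library, Nkx2-1 in CPM over all PVALB cells, the percentage of PVALB cells in the Pthlh-high clusters 23 and 31, and Nkx2-1 in CPM in PVALB cluster 2 alone, with WT in black and null in red. The cortical null libraries are above the cortical WT libraries in the panels for all PVALB cells (46.0 and 84.0 CPM) and for the Pthlh-high share (28.6 and 53.4%), and overlap them in cluster 2.

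The other fate factors of PVALB cells gave smaller values. Sox6 was lower in both cortical null libraries (39.0 and 56.3 CPM) than in WT (62.9, 79.0 and 85.7 CPM), with a log2 value of -0.60 (SE 0.29). Mef2c was lower in the same way (1034 and 912 CPM against 1102, 1423 and 1285 CPM), with a log2 value of -0.36 (SE 0.26). Without clusters 23 and 31 Mef2c overlapped between genotypes (1238 and 929.9 CPM against 1064, 1320 and 1296 CPM), and the gap for Sox6 was narrow (43.2 and 65.44 CPM against 65.545, 87.6 and 88.7 CPM). Over all PVALB cells neither passed the threshold, with edgeR adjusted p of 0.99966 for each. EdgeR called 0 of the 7 tested fate factors and 0.0% of 9707 genes in cortex and in hippocampus, with 1 and 0 fate factors and 361 and 314 genes at an unadjusted p under 0.05, and DESeq2 called 0 fate factors and 13 and 1 genes. The replicate block gave 0 fate factors and 4 genes in cortex, and leaving out hippocampal WT library 2, which shares the spread estimate, gave 0 and 6. The median log2 value of the fate factors was -0.08 in cortex and -0.07 in hippocampus, against -0.00 and -0.01 over all genes tested. For the interaction edgeR called 0 fate factors and 0.0% of genes, with 1 and 102 at an unadjusted p under 0.05, and DESeq2 called 0.

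In hippocampal NGFCs Sox6 stood at 4.70, 7.49 and 4.47 CPM in WT and at 0 and 1.90 CPM in null libraries, so both null libraries were below all WT libraries. These values rest on 4, 8 and 14 UMIs in WT and on 0 and 17 UMIs in null libraries. The 0 comes from 68 cells with 774042 UMIs, so counting error is large. The log2 value was -1.85 (SE 0.81, edgeR adjusted p = 0.963). The OPC marker list, measured by 4 of its 5 genes, summed to 128, 313 and 185 CPM in these WT libraries and to 67.2 and 151 CPM in null libraries, with Vcan as its most abundant gene over pooled WT cells and Pdgfra and Cspg4 at 0 in hippocampal WT libraries 1 and 2. The list of 4 COP markers summed to 20.0, 78.7 and 34.5 CPM in WT and to 0 and 9.60 CPM in null libraries, with Gpr17 as the most abundant. The COP sums were lower in both null libraries and the OPC sums overlapped between genotypes. Sox6 is strong in both kinds of cell, and their part in the Sox6 value was not tested. Satb1 overlapped between genotypes in hippocampal NGFCs, at 34.1, 14.1 and 7.67 CPM in WT and 12.9 and 7.59 CPM in null libraries. EdgeR called 0 of the 7 tested fate factors and 0.0% of 9982 genes, with 1 and 314 at an unadjusted p under 0.05, and DESeq2 called 0 and 1. The cortical NGFCs had 1 null library with at least 10 cells, so they give values without a test. Satb1 stood there at 4.53 CPM against 9.46, 45.7 and 30.7 CPM in WT, Sox6 at 4.53 against 9.46, 9.61 and 13.8 CPM, Bcl11b at 304 against 356, 495 and 389 CPM and Mef2c at 589 against 867, 942 and 771 CPM, all below WT. The Satb1 and Sox6 values rest on few UMIs, 5 for each gene in the null library and 3 for each in cortical WT library 1. Nkx2-1 stood at 105.1 CPM against 126, 79.3 and 66.1 CPM, with overlap, as for Lhx6 and Maf. A list of 5 markers of caudal ganglionic eminence cells summed to 547 CPM in that null library, led by Vip (366 CPM). In the cortical WT libraries the list summed to 158, 384 and 120 CPM, and its bearing on these values was not tested.

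With 2 null and 3 WT libraries in a region, no permutation test of detection shares could pass 0.05, so these shares are given as values. Satb1 was found in 29.3 ± 0.770% of thinned cortical null interneurons (n = 2) and 37.9 ± 1.64% of WT ones (n = 3), without overlap, with an exact permutation p of 0.1 (two-sided, the smallest that these libraries allow) and an adjusted p of 0.914 over 16 tests. In the hippocampus Lhx6 (11.3 ± 2.02 against 14.2 ± 1.14%) and Sox6 (1.85 ± 0.282 against 2.39 ± 0.258%) were lower in both null libraries, each with an exact permutation p of 0.2. The cortical separation of Satb1 depended on depth, since at 2000 UMIs the shares overlapped (50.5 ± 9.82 against 56.5 ± 3.002%), as they did at own depth. At 2000 UMIs it was cortical Sox6 and Mef2c that did not overlap (-5.17 and -10.3 percentage points, exact permutation p of 0.2 for each). At own depth cortical Nkx2-1 did not overlap (16.3 ± 6.86% in null against 5.49 ± 1.21% in WT libraries, exact permutation p of 0.1). Hippocampal Sox6 and Mef2c were also higher in both null libraries at own depth (exact permutation p of 0.2 for each). At 1000 UMIs the other 13 comparisons overlapped between genotypes. With so few libraries such separations also arise by chance, and their share over all genes was not counted.

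Genes whose pooled WT level ran most like each fate factor over 34 clusters were named by the Pearson correlation of log2(CPM + 1), among 13063 genes. For Nkx2-1 the closest were Adarb2 (r = 0.743) and Fam124a (0.731). For Lhx6 they were Gm14204 (0.968) and Slc32a1 (0.961), the vesicular GABA transporter, and for Lhx8 they were Galr1 (0.968) and Slc18a3 (0.940), the vesicular acetylcholine transporter. Sox6 ran with Ampd3 (0.884) and Ebf4 (0.848), Satb1 with Rbp4 (0.917), Maf with Arhgef6 (0.897) and Zfp385a (0.858), Mef2c with Krt222 (0.912) and Cck (0.903), and Bcl11b with Scn2a1 (0.962) and Erc2 (0.956). Among the fate factors themselves the highest values were those of Lhx6 with Maf (0.771) and with Bcl11b (0.755), and the lowest was that of Nkx2-1 with Satb1 (-0.176). The clusters share libraries and differ in depth, so these values describe the pattern only.

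The genes lie on GRCm38 at chr12:56531958-56536908 (Nkx2-1, minus strand, ENSMUSG00000001496.11), chr2:36081953-36105408 (Lhx6, minus, ENSMUSG00000026890.15), chr3:154306294-154330659 (Lhx8, minus, ENSMUSG00000096225.4) and chr7:115470872-116038796 (Sox6, minus, ENSMUSG00000051910.9). Satb1 lies at chr17:51736187-51833290 (minus, ENSMUSG00000023927.11), Maf at chr8:115682942-115707794 (minus, ENSMUSG00000055435.6), Mef2c at chr13:83504034-83667080 (plus, ENSMUSG00000005583.12) and Bcl11b at chr12:107910403-108003602 (minus, ENSMUSG00000048251.11). All 8 are protein-coding genes. Promoters from RefSeq on GRCm38.p6 (250 bases before to 50 after the start) matched 7 of the 8, and Maf had no entry. They were searched on both strands for TAATTA, a LIM-homeodomain core, held by 5.29% of 32851 promoters, CAAGTG, an NK2-homeodomain core, held by 13.6%, TGCTGAC, a MAF core, held by 4.67%, and AACAAT, a SOX core, held by 10.7%. The promoter of Mef2c held 1 CAAGTG. The promoters of Nkx2-1 (chr12:56536859-56537158) and Satb1 (chr17:51833241-51833540) are printed because these genes ran in opposite directions across the interneuron classes. Capitals mark a motif, and a match or its absence is a description of these letters only.
Nkx2-1: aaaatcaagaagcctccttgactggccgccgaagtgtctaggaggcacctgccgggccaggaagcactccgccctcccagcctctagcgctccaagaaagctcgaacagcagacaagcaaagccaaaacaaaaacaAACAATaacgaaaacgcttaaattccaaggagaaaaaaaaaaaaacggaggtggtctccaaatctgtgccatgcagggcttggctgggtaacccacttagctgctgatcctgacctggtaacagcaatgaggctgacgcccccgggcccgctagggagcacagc
Satb1: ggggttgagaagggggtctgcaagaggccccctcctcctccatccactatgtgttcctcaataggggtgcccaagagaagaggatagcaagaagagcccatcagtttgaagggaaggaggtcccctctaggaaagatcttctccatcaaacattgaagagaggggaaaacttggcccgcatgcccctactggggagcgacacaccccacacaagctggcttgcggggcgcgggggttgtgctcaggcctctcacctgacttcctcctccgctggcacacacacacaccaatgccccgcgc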

How the data were processed

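UMI counts per gene and cell were made by the authors with Cell Ranger 2.1.1 on the mouse mm10 genome, with gene ends extended, and deposited as 1 matrix for each region and genotype. Libraries were told apart by barcode suffix and matched to replicates by the number of cells that the methods state for each. Filters kept cells in which 200 to 6000 genes were seen and 37 mitochondrial genes gave under 30% of UMIs. The fate factors and gene lists were chosen with earlier results of these data known.

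The matrices of each region and genotype were integrated with Seurat 5.3.0 in R 4.3.3 (2000 variable features, 25 dimensions, resolution 1). Libraries within a matrix were not integrated with each other. This was done after taking out the 8 fate factors, 7 of which were among the variable features. A cluster was named for the marker list with the highest mean standardized level if at least 3 markers and a defining marker reached 20 CPM and exceeded the mean over clusters, no other class had more markers among its leading genes, and it was not a low-UMI cluster (median under 0.333 of that of its libraries) without a marker among its 10 leading genes. Of all cells, 2969 stayed unnamed, among them 1300 cells of a shallow cluster with SST markers and cluster 22, whose defining cholinergic marker was under 20 CPM. Doublets were scored with Scrublet in scanpy 1.11.5 (249 cells, 0.950%) and removed only as an alternative.

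UMIs were summed by library and class where there were at least 10 cells, and CPM uses all UMIs of those cells. Tests used edgeR 4.0.16 (TMM, filterByExpr, quasi-likelihood), with DESeq2 1.42.0 as an alternative, and the unit of replication is a library of pooled animals. The test code was tested on simulated data. SE is the absolute log2 value over the square root of F. Classes were compared in WT cells with the library as a block. Regions and genotypes were compared without a block. Whether replicate numbers pair the libraries was checked with deviations from the group mean in WT cells: same-number pairs correlated at 0.456 to 0.739 in SST, 0.469 to 0.722 in PVALB and 0.351 to 0.677 in NGFC cells, and other pairs at -0.640 to 0.218, -0.601 to 0.110 and -0.599 to 0.180. Same-number pairs of WT and null libraries in a region correlated at 0.115 to 0.247 in SST and 0.150 to 0.256 in PVALB cells. Across regions such pairs correlated at -0.103 to 0.376 and at -0.0663 to 0.348. Replicate blocks were an alternative for each of the region and genotype tests. Poisson and binomial intervals are 95% and exact. Detection shares were compared by exact permutation of libraries, with p adjusted over 16 tests.

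Alternatives were DESeq2, library-size scaling, no low-count filter, an adjusted p limit of 0.05, clustering with the fate factors, resolution 0.6, doublet removal, blocking, leaving out each library, PVALB cells without Pthlh-high clusters (over 5 times the Pthlh level of the largest PVALB cluster), and other thinning depths. Alternatives on the make-up of the SST class, and the PVALB alternative in class comparisons, were chosen after seeing the data. Genes are named where they are fate factors, members of the lists, cluster or class markers, or among the 3 closest in level. Some results for other lineage factors are not reported here. Coordinates come from GENCODE vM21. Tables and figures were made with Python 3.11.15, numpy 2.4.6, pandas 2.3.3, scipy 1.17.1 and matplotlib 3.10.9.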

Additional observations from a re-analysis of the deposited data

Results flagged for a closer look

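A single library stood far from the others in 4 of 39 sets of WT libraries tested with Dixon's ratio, where chance alone would give about 1 in 20. Maf in SST cells was 556 CPM in hippocampal WT library 2, against 81.7 to 209.7 CPM in the other 5 WT libraries. Bcl11b in PVALB cells was 158 CPM in cortical WT library 2, against 69.1 to 86.9 CPM. Nkx2-1 in NGFCs was 126 CPM in cortical WT library 1, against 62.8 to 79.3 CPM. Nkx2-1 in OPCs was 83.2 CPM in hippocampal WT library 1, against 13.2 to 34.1 CPM. For Maf, cluster 4 held 78.3% of the SST cells of that library, which was also the shallowest. Replicate 2 was also the highest WT library for Maf in PVALB cells and in NGFCs of both regions. Make-up, depth and preparation cannot be told apart here, and the cause was not tested.

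Strong levels in cells outside the tested classes were picked out because they passed the level of every tested class. Lhx8 reached 56.1 CPM in cluster 22 over pooled WT cells, against at most 0.662 CPM in a tested class and a counting floor of 2.40 CPM. Sox6 reached 248 CPM in OPCs (floor 1.28) and 132 CPM in COPs (floor 0.553), against at most 78.7 CPM. Maf reached 900.4 CPM in MG (floor 12.6), against at most 359.6 CPM. These differences were not tested.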

How the results depend on the processing

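Of 357 alternatives to the 21 log2 values of fate factors that any setting called, 347 kept their side of the threshold, 6 moved to the called side, 4 moved off it and none reversed. Values that no setting called kept their sign in 1140 of 1234 alternatives. The moves off the threshold were Nkx2-1 between PVALB and SST cells without the Pthlh-high clusters (log2 1.28), and Maf in NGFCs without the library block (0.77 against SST, 0.98 against PVALB) and without SST clusters 7 and 10 (0.48). The moves onto it were Bcl11b between PVALB and SST cells (0.38 with no low-count filter, and at an adjusted p under 0.05), Sox6 between regions in SST cells (-1.18 by DESeq2, -1.17 with the replicate block), Bcl11b there (-1.18 with the replicate block) and Nkx2-1 in cortical PVALB cells (2.07 with no low-count filter). Blocks changed no other call. The cause was not tested.

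Counts of genes past the threshold moved by more than 1.5 times as follows. Between PVALB and SST cells 457 passed without the library block and 1341 without SST clusters 7 and 10, and leaving out a library gave 1318 (without cortical WT replicate 3) to 2183. Without the library block 840 passed between NGFC and SST cells and 677 between NGFC and PVALB cells. Between regions in SST cells 107 passed by DESeq2, 5 with library-size scaling, 168 with no low-count filter, 30 at an adjusted p under 0.05, 5 with the fate factors kept as features, 5 at resolution 0.6, 182 with the replicate block and 5 with the low-UMI SST clusters counted. There, leaving out any cortical WT replicate or hippocampal WT replicate 3 gave 0, hippocampal WT replicate 1 gave 1 and hippocampal WT replicate 2 gave 5. DESeq2 called 1 fate factor and the replicate block 2. Between regions in PVALB cells 23 passed by DESeq2, 83 with no filter, 8 at an adjusted p under 0.05, 52 with the replicate block, 1 without the Pthlh-high clusters and 0 without any 1 of the 6 libraries, and in NGFCs 6, 33 (no filter) and 10 (replicate block).

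For null against WT, the counts by DESeq2, with no filter and at an adjusted p under 0.05 were 2, 25 and 1 in cortical SST cells, 1, 17 and 1 in hippocampal SST cells, and 13, 55 and 9 in cortical PVALB cells. The unfiltered test called 1 fate factor in cortical PVALB cells, the replicate block gave 4 genes there, and leaving out the Pthlh-high clusters gave 1. Leaving out a library there gave 0 to 6 (6 without hippocampal WT replicate 2, 3 without either hippocampal null replicate, 1 without cortical WT replicate 1, hippocampal WT replicate 1 or 3). Where a single library was left, it was assumed to vary like the other groups. DESeq2 and the unfiltered test gave 1 and 14 in hippocampal PVALB cells and 1 and 20 in hippocampal NGFCs. The unfiltered interaction gave 1 gene in SST and 3 in PVALB cells. Cortical NGFCs had no test.

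The null minus WT difference in detection shares turned at own depth, in percentage points, to 3.72 (Sox6), 4.70 (Maf) and 1.90 (Bcl11b) in cortex and to 10.15 (Nkx2-1), 20.1 (Lhx6), 7.99 (Sox6), 11.2 (Satb1), 12.1 (Maf), 11.9 (Mef2c) and 8.25 (Bcl11b) in hippocampus, where null cells hold more UMIs, and at 2000 UMIs to 0.444 for hippocampal Sox6. In cortex the difference at own depth rose without turning from 0.555 to 10.8 (Nkx2-1), from 0.0637 to 7.84 (Lhx6) and from 0.00385 to 0.387 (Lhx8). At 1000 UMIs, leaving out a library gave -1.17 to 2.28 (Nkx2-1), -1.01 to 0.651 (Lhx6), -0.101 to 0.108 (Lhx8) and -11.1 to 4.55 (Mef2c) in cortex, and -1.51 to 0.206 (Nkx2-1), -4.14 to 1.51 (Satb1) and -3.06 to 1.0 (Mef2c) in hippocampus.

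Each group holds 2 or 3 libraries of pooled animals, so small differences would be missed, and a missed threshold does not show equal levels. Chemistry and preparation differ between replicates, and pooled null cells hold more UMIs than WT cells, mostly through null library 2 of each region. RNA from other cells in a droplet was not removed. Nkx2-1 and Lhx8 rest on few UMIs in SST cells, as do Sox6 and Satb1 in most NGFC libraries, and class names rest on marker lists.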
